A study of Sus scrofa with 20 samples.

Results

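The livers of 10 boars were divided by the share of their sequencing reads that found a place on the reference transcripts. The mapped share was the number of mapped reads divided by the number of all reads of a library. The 5 livers with the higher share were compared with the 5 livers with the lower share, out of 20 testis and liver samples in the series. Each liver is named here by the androstenone group of its boar and its replicate number. From the highest share down, the higher-share livers were High3, Low5, High2, Low3 and Low4, and the lower-share livers were Low1, Low2, High5, High1 and High4. The higher-share livers thus came from 3 boars with low and 2 boars with high androstenone, and the lower-share livers from 2 with low and 3 with high. The place of High3 rests on its read numbers, since the percentages printed for it in the study stand the other way round. The counts of High3 added up to 100.1% of its mapped reads and to 59.3% of all its reads. Shares ran from 59.2% in High3 to 41.3% in High4. The boundary was narrow, with Low4 at 47.5% just inside the higher group and Low1 at 47.1% just outside it.

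All 10 boars were crosses of Duroc with a Leicoma, German Landrace and Large White line, and no other factor is given for them in the labels. Every label gives an age of 116 days, which is a mean over the boars. Their androstenone group was set by the level of this testicular steroid, a cause of boar taint, in fat. RNA was extracted from frozen liver tissue, turned into full-length cDNA with the SMART kit and amplified. Libraries were made by the Illumina mRNA-Seq protocol and sequenced as single reads, with 1 library and 1 lane per liver. Each library came from a separate boar, so the spread between libraries includes the boars, the tissue pieces and the preparations. No label gives the order of extraction or of preparation, and RNA integrity values were not analysed here. The mapped share and the gene counts came from the same reads, and they describe the same libraries from 2 sides.

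Liver tissue consists mostly of hepatocytes, which secrete plasma proteins, store and release glucose and fat, make bile acids and clear steroids and drugs. Bile duct cells, stellate cells, endothelial cells and Kupffer cells make up most of the rest. A mapped share falls when more reads come from sequences outside the reference, such as introns, ribosomal RNA, unannotated transcripts or damaged and adapter-like fragments. It is a property of a library and of the RNA that entered it, and the counts alone do not separate those 2 sources. In bulk tissue, fewer cells of a type and less RNA per cell also cannot be told apart.

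Total counts per liver lay between 5796973 and 26783002, and 3 counts corresponded to between 0.112 and 0.518 counts per 1000000 counts (CPM). Lower values were not separable from 0, and this floor covers counting error only. Depth did not follow the grouping. The mean total was 12734900 ± 8661540 (SD, n = 5) in the higher-share and 11904700 ± 6180370 (SD, n = 5) in the lower-share livers, with an exact two-sided permutation p of 0.833. High3 was the deepest library and High4 the shallowest, and they also held the 2 ends of the mapped share. No pair of liver libraries held identical counts.

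The clearest mark of a low mapped share was a set of noncoding transcripts. IDs with the RefSeq prefixes for noncoding RNA took 3.53%, 6.41%, 9.70%, 7.54% and 9.72% of the counts in the higher-share livers, in the order given above. In the lower-share livers they took 19.8%, 21.0%, 23.7%, 14.0% and 30.5%. The groups did not overlap, and High4, with the lowest mapped share, carried the most noncoding counts. The difference of the means was -14.5 percentage points, with an exact two-sided permutation p of 0.00794, the smallest that 5 against 5 allow. This measure was chosen after its values were seen.

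A handful of IDs made up nearly all of that difference. NR_002170.3, XR_115867.1, XR_115869.1 and XR_115868.1 together took 4.89% ± 2.14 (SD, n = 5) of the counts in the higher-share and 18.4% ± 5.80 (SD, n = 5) in the lower-share livers. None of these IDs had a symbol in the tables used here. NR_002170.3 alone stood at 0.532%, 1.83%, 2.81%, 2.47% and 1.52% of the higher-share libraries. In the lower-share libraries it stood at 7.80%, 8.15%, 8.50%, 3.88% and 9.80%, above every higher-share liver. After TMM normalization, which scales libraries by the bulk of their genes, its log2 fold change was -1.95 (SE 0.43, adjusted p = 0.0070), and that of XR_115867.1 was -1.73 (SE 0.39, adjusted p = 0.0084).

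**Figure D1:**
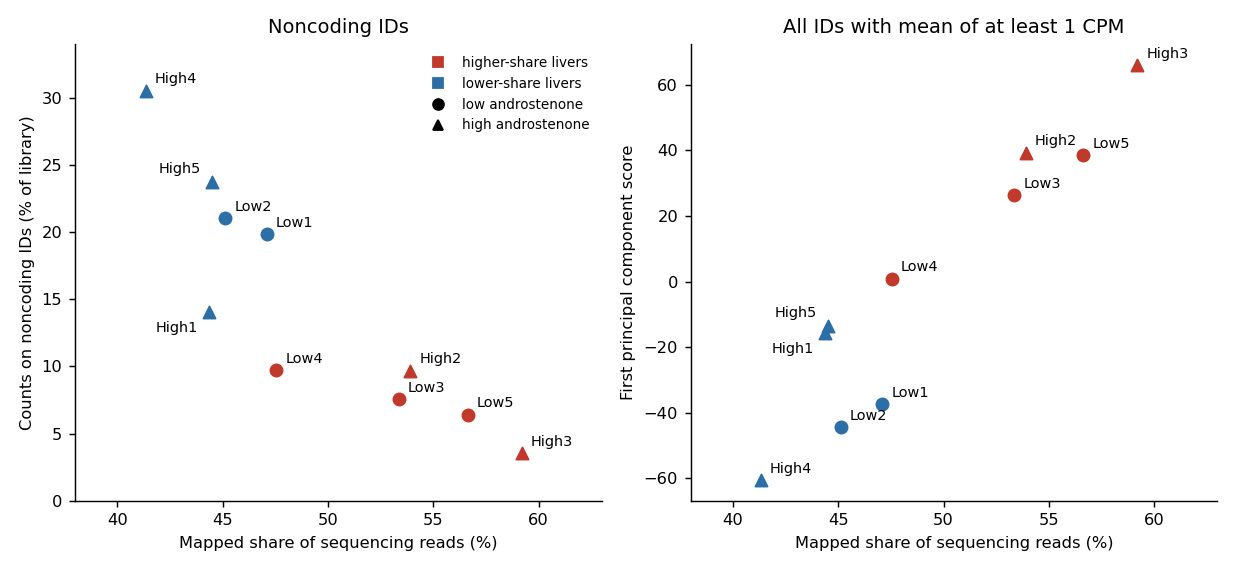
Each point is 1 liver, with its mapped share in percent on the horizontal axis. The left panel gives the percent of counts on noncoding IDs, where the higher-share livers sit between 3.53 and 9.72 and the lower-share livers between 14.0 and 30.5. The right panel gives the score on the first principal component of log2(CPM + 1), where Low4 lies near 0, between the other higher-share livers and the lower-share livers.

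The first principal component over 11444 IDs with a mean of at least 1 CPM held 49.4% of the variance and ran from High3, at 66.1, to High4, at -60.5. Low4 scored 0.97, and its neighbour in mapped share, Low1, scored -37.4. All 5 lower-share livers scored below 0, but High5 and High1, at -13.4 and -15.7, lay closer to Low4 than Low1 and Low2 did, although their mapped shares were lower.

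Other measures of library makeup moved less. The 10 most abundant IDs took 27.5% ± 2.20 of the counts in the higher-share and 33.8% ± 4.78 in the lower-share livers (SD, n = 5 each, exact two-sided permutation p = 0.0317, adjusted p = 0.111 over 7 measures). With the noncoding IDs taken out this turned round, to 27.8% against 24.0%. Secreted plasma protein IDs took 18.9% ± 2.37 against 14.6% ± 1.85 (SD, n = 5 each, exact permutation p = 0.0159, adjusted p = 0.111), and 20.4% against 18.7% without the noncoding IDs. For the number of IDs detected (15760 ± 439 against 16086 ± 700), the 100 most abundant IDs, ribosomal protein, respiratory chain and hemoglobin IDs, the exact permutation p lay between 0.127 and 0.532. Hemoglobin IDs, a trace of blood, took between 0.425% and 0.752% of the higher-share and between 0.107% and 0.886% of the lower-share libraries.

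Across single transcripts the livers of the 2 groups differed widely. Of 15855 reference IDs with at least 10 counts over the 10 livers, 1582 were higher and 1493 lower in the higher-share livers by edgeR's quasi-likelihood test. A call required a Benjamini-Hochberg adjusted p below 0.05 together with a 1.5-fold difference or more. These calls were 9.98% and 9.42% of the IDs tested. At an unadjusted p under 0.05 there were 5553. The median change was 1.21 on the log2 scale among the IDs called higher and -1.24 among those called lower, against -0.04 over all IDs. Every higher-share liver lay above every lower-share liver for 862 IDs (5.44%) and below for 1016 IDs (6.41%).

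These calls rested on which side of the boundary 2 livers were placed. When the share was taken from the summed counts instead of the mapped reads, Low4 and Low1 changed places. No ID then passed in edgeR, with a smallest adjusted p of 0.0633 and 3169 IDs at an unadjusted p under 0.05, while DESeq2 called 595. The direction was kept by 3066 of the 3075 called IDs, and their median change, counted in that direction, went from 1.23 to 0.87. With Low4 and Low1 left out altogether, edgeR called 1595 higher and 1395 lower, and 2519 of the 3075 calls were shared. Without High3 the counts fell to 792 higher (5.06% of 15644 tested) and 795 lower (5.08%). Without High4 they were 883 and 864, without Low1 1019 and 947, and without Low2 1040 and 1013.

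Abundant transcripts were more often higher, and transcripts of middle abundance were called in both directions. When the IDs were cut into 10 equal bins by mean level, in the most abundant bin, from 57.4 CPM up, 20.1% were called higher and 6.18% lower. In the bin between 4.05 and 7.22 CPM, the shares were 12.1% and 14.4%. Over all IDs, 9.98% were called higher and 9.42% lower. The gene lists below should be read against these shares and this tilt, since many of them hold abundant transcripts. Noncoding IDs went the other way, with 23 of 716 called higher and 130 called lower.

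**Figure D2:**
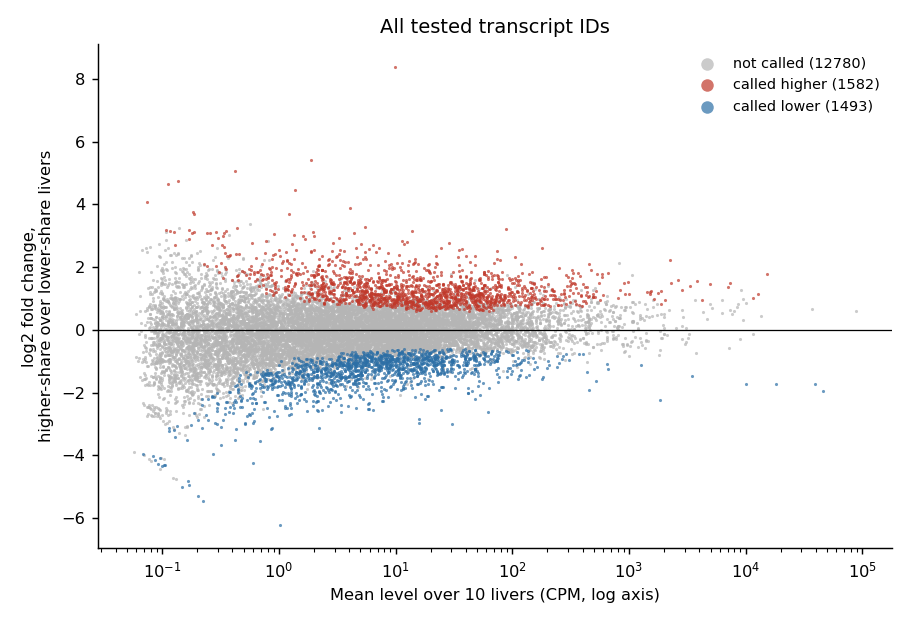
Each point is 1 of 15855 tested IDs, placed by its mean level in CPM on a log axis and by its log2 fold change, higher-share over lower-share livers. The 1582 IDs called higher are red, the 1493 called lower are blue, and the blue points at the far right include NR_002170.3 and XR_115867.1.

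Among IDs with a symbol, the 12 with the smallest p on the rising side included parts of the machinery that builds and moves membranes and their anchors. PIGH, a subunit of the enzyme that starts GPI anchors, stood at 10.3, 9.57, 9.59, 5.82 and 3.97 CPM in the higher-share livers, in the order High3, Low5, High2, Low3 and Low4. In the lower-share livers, in the order Low1, Low2, High5, High1 and High4, it stood at 1.32, 0.997, 1.55, 1.35 and 1.37 CPM. PIGH was lowest in Low3 and Low4 within the higher-share group and nearly flat in the lower-share group, and its log2 fold change was 2.60 (SE 0.31, adjusted p = 0.0014). PIGU, part of the complex that attaches the anchor to proteins, rose by 2.11 on the log2 scale (SE 0.33, adjusted p = 0.0025) without overlap between the groups.

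ARF1, the small GTPase that recruits coat proteins to the Golgi, gave 62.6, 36.4, 39.7, 28.4 and 19.99 CPM in the higher-share livers. Its lower-share values were 6.47, 5.78, 9.86, 11.4 and 2.91 CPM, with the lowest in High4. The groups did not overlap (log2 fold change 2.35, SE 0.36, adjusted p = 0.0022). PISD, the mitochondrial enzyme that makes phosphatidylethanolamine, rose by 3.08 (SE 0.46) and by 2.57 without High3, its highest liver at 17.0 CPM. GNAI3, an inhibitory G protein subunit, CD82, a tetraspanin, PRKAG1, the gamma subunit of the energy sensor AMPK, and F11R, a tight junction adhesion molecule, rose by between 1.83 and 2.45. PLPBP, a pyridoxal phosphate binding protein, DAZAP2, NKIRAS2, an inhibitor of NF-kappa-B signalling, and LOC100524613 completed the 12 and rose by between 1.86 and 2.78. All 12 stayed called whichever liver was left out.

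The 12 IDs with the smallest p on the falling side included several transcription and chromatin regulators. USF2, a basic helix-loop-helix factor of glucose-responsive liver genes, was represented by 2 IDs that may share reads. For XM_003127042.1 the higher-share livers gave 4.57, 4.47, 5.02, 8.62 and 9.31 CPM. The lower-share livers gave 31.1, 26.9, 24.4, 22.7 and 40.6 CPM, with the highest value in High4. USF2 was lower in every higher-share liver, with log2 fold changes of -2.19 (SE 0.28, adjusted p = 0.0014) and -2.10 for the other ID.

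FOXA2, a pioneer factor that opens hepatocyte enhancers, stood at 7.64, 6.30, 13.7, 13.7 and 14.1 CPM in the higher-share livers. In the lower-share livers it stood at 34.6, 30.5, 46.1, 27.6 and 54.4 CPM. Its groups did not overlap (log2 fold change -1.81, SE 0.29, adjusted p = 0.0025), nor did those of CEBPA, the factor that keeps hepatocytes differentiated. CEBPA fell by 1.79 (SE 0.34, adjusted p = 0.0040), and within the lower-share livers High1 was its lowest at 6.93 CPM. MEN1, a scaffold of histone methyltransferases, and BCL7C, a subunit of SWI/SNF chromatin remodellers, fell by 1.97 and 1.93.

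APOE, the apolipoprotein that returns remnant lipoproteins to the liver, was among the most abundant of the falling transcripts. It gave 492, 542, 599.8, 807 and 843 CPM in the higher-share livers, rising as the mapped share fell. The lower-share livers gave 3120, 1759, 2678, 1824 and 5917 CPM, so that the lowest of them lay above the highest of the other group (log2 fold change -2.22, SE 0.36, adjusted p = 0.0027). CFL1, an actin-severing protein, LRRC8A, a subunit of the volume-regulated anion channel, WBP2, a WW domain binding coactivator, VAPB, a tether between the endoplasmic reticulum and other membranes, and C10H1orf115 fell by between 1.24 and 2.62. Each of the 12 leading IDs on the falling side stayed called without any single liver.

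**Figure D3:**
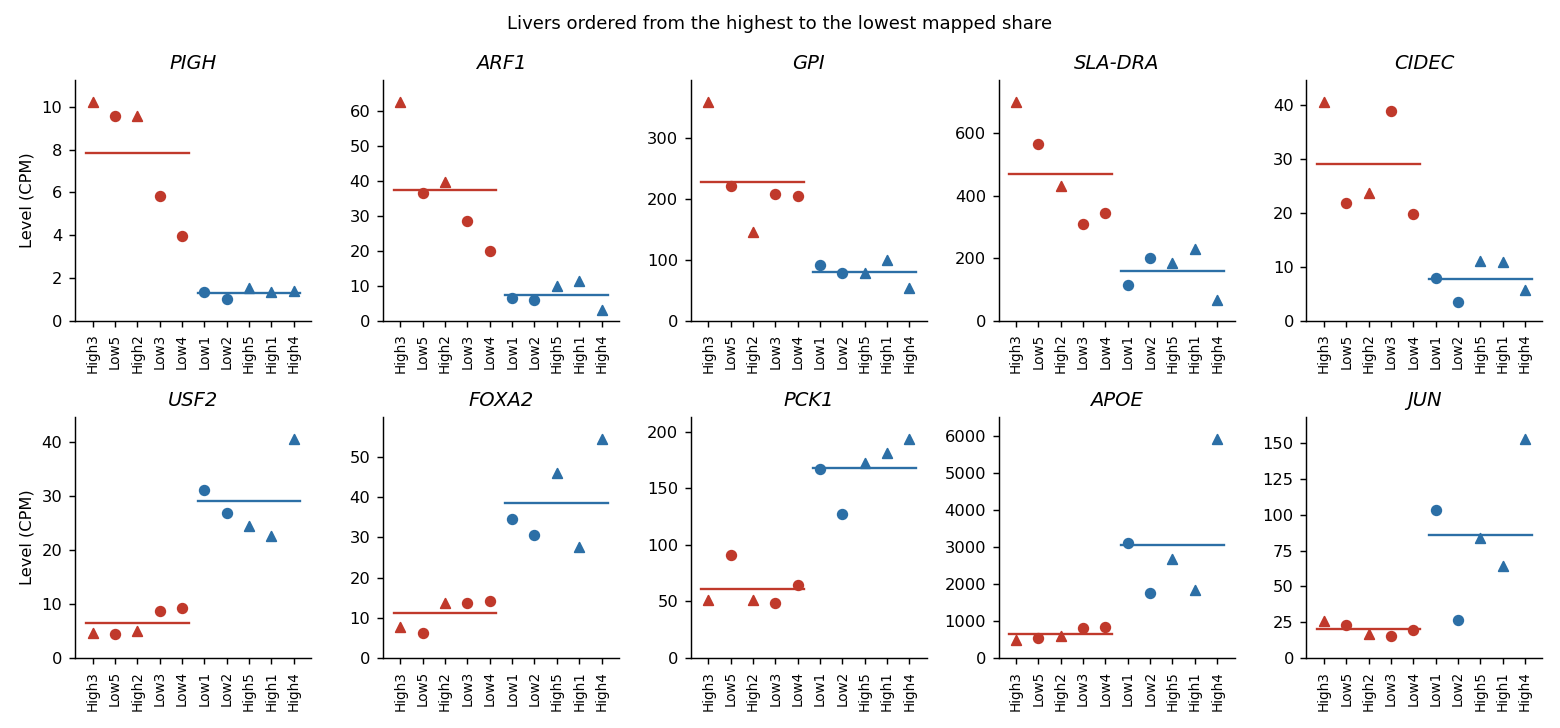
Levels in CPM of 10 named genes in each liver, ordered from the highest to the lowest mapped share, with higher-share livers red, lower-share livers blue, circles for low and triangles for high androstenone boars and lines at the group means. PIGH, ARF1, GPI, SLA-DRA and CIDEC lie above the lower-share livers in each higher-share liver, and USF2, FOXA2, PCK1, APOE and JUN lie below them in each.

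Most proteasome subunits were higher in the higher-share livers. Of 18 tested proteasome subunits, 12 were called higher (66.7%) and 0 lower. The share called higher was 20.1% in the most abundant bin and 9.98% over all IDs. The median log2 fold change of the list was 0.92, against -0.04 over all IDs. PSMD13, of the regulatory lid, stood at 232, 148, 123, 149 and 122 CPM in the higher-share and at 83.4, 49.1, 64.8, 79.0 and 57.4 CPM in the lower-share livers. High3 was its highest liver, and the remaining higher-share livers still lay above all lower-share livers (log2 fold change 1.21, SE 0.25, adjusted p = 0.0057). PSMB5, a catalytic subunit, and PSMC6, an ATPase of the base, rose by 1.00 and 1.03. Without High3 or without High4, 5 of 18 were called, and without High3 the median was 0.77. The median lay at 0.81 within the low and at 1.03 within the high androstenone livers.

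Antigen-presenting molecules were called only upward. Of 17 IDs of the swine MHC and its partners, 8 were called higher (47.1%) and 0 lower, with a median log2 fold change of 0.72. The share called higher was 20.1% in the most abundant bin and 9.98% over all IDs, and 6.18% and 9.42% were called lower. SLA-DRA, the alpha chain of a class II molecule, gave 701, 566, 430.0, 309 and 345 CPM in the higher-share and 115, 202, 185, 229 and 66.1 CPM in the lower-share livers. No lower-share liver reached the lowest of the higher-share livers (log2 fold change 1.56, SE 0.34, adjusted p = 0.0070). SLA-DMA and SLA-DMB, which load peptides onto class II molecules, rose by 1.28 and 1.02, and the class I IDs SLA-2 and SLA-5 rose by 1.45 and 1.41. SLA-3, another class I ID, rose by 2.79 but by 1.69 without Low3, which stood at 69.5 CPM against at most 14.0 CPM elsewhere. MHC genes are near-identical and variable between pigs, so counts for single SLA IDs are uncertain. Without High3, 6 of the 17 were called.

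Interferon response genes were called higher in 5 of 28 (17.9%) and lower in 1, with a median of 0.45, and without Low4 10 were called higher. The share called higher was 14.6% in the bin between 12.4 and 23.6 CPM, which holds the list's median level of 14.2 CPM. It was 9.98% over all IDs. IRF9, part of the interferon-activated transcription factor complex, IFI30, a lysosomal thiol reductase, TAP1, a peptide transporter for class I molecules, and the immunoproteasome subunits PSMB8 and PSMB9 rose by between 0.81 and 1.497. IFI30, TAP1, PSMB8 and PSMB9 all serve antigen processing, and PSMB8 and PSMB9 were also counted with the proteasome. CXCL9, a chemokine induced by interferon, fell by 2.05 and by 0.96 without Low2, where it stood at 81.5 CPM, and it was then no longer called.

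Energy genes were higher in part. Of 44 respiratory chain and ATP synthase IDs, 11 were called higher (25%) and 2 lower (4.55%), with a median of 0.20. These shares were near the 20.1% and 6.18% of the most abundant bin, against 9.98% and 9.42% of all IDs. ATP5B, the catalytic beta subunit of ATP synthase, stood at 2077, 942, 792, 897 and 430.5 CPM in the higher-share livers and at 259.7, 265, 363, 415 and 173 CPM in the lower-share livers. Low4 lay just above High1, so the separation was narrow on that side (log2 fold change 1.80, SE 0.38, adjusted p = 0.0060). NDUFA9 and NDUFS1 of complex I, SDHD of complex II and the ATP synthase subunits ATP5A1 and ATP5D rose by between 0.79 and 1.703. Without High3, 5 of the 44 were called higher and none lower.

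In the combined list of fat synthesis and glycolysis, 5 of 23 were called higher (21.7%) and 5 lower (21.7%), with a median of 0.23. The 5 lower calls rested on single livers, with 2 left without High3, 1 without High4 and 1 without Low1, and 4 were called higher in each of these cases. The rising side held GPI, PGK1 and TPI1 of glycolysis, PGD of the pentose phosphate pathway and LDHA, which makes lactate. The falling side held FADS2, AGPAT2, SCD, ME1 and LPL, and LDHA, SCD, ME1 and LPL were named here after their values were seen. GPI gave 359, 220.04, 145, 208 and 205 CPM in the higher-share and 91.5, 77.5, 78.9, 100.04 and 53.8 CPM in the lower-share livers (log2 fold change 1.5, SE 0.27, adjusted p = 0.0036). PGK1 rose by 1.63 and TPI1 by 1.38, both without overlap between the groups. FADS2, a desaturase of polyunsaturated fatty acids, and AGPAT2, an enzyme of glycerolipid synthesis, fell by 2.56 and 1.03. FADS2 was high only in Low1 and Low2, at 9.53 and 6.28 CPM, against at most 1.88 CPM in the remaining livers, and its direction turned when Low1 and Low4 changed places.

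In the list of gluconeogenesis and fasting, 6 of 29 were called higher (20.7%) and 1 lower, with a median of 0.48. The share called higher was 20.1% in the most abundant bin and 9.98% over all IDs. The single falling gene was PCK1, the enzyme that commits carbon to new glucose. It stood at 51.1, 91.2, 51.3, 48.3 and 64.8 CPM in the higher-share and at 167, 127, 173, 181 and 194 CPM in the lower-share livers, without overlap (log2 fold change -1.46, SE 0.24, adjusted p = 0.0029). FBP1, a later step of the same pathway, went the other way and rose by 1.17. CIDEC, a lipid droplet protein, gave 40.7, 21.9, 23.8, 38.9 and 19.7 CPM against 7.86, 3.49, 10.99, 10.8 and 5.65 CPM. It rose by 1.91 (SE 0.33, adjusted p = 0.0031), and ACADVL, which starts the mitochondrial oxidation of long fatty acids, rose by 1.83.

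In amino acid breakdown 6 of 29 were called higher (20.7%) and 0 lower, with a median of 0.62 and 25 of the 29 above 0. This was near the 20.1% called higher in the most abundant bin, against 9.98% of all IDs. Without High5 or without Low5, 1 was called lower. GNMT, which consumes the methyl donor S-adenosylmethionine, was even across the higher-share livers, at 1559, 1576, 1261, 1425 and 1456 CPM. In the lower-share livers it was scattered, at 377, 191, 460.4, 977 and 521 CPM, and remained below them (log2 fold change 1.53, SE 0.35, adjusted p = 0.0088). GOT2, a mitochondrial aminotransferase, GLUL, glutamine synthetase, SLC25A13, the aspartate carrier of the urea cycle, and IVD, of leucine breakdown, rose by between 0.98 and 1.19. HAL, of histidine breakdown, rose by 1.90, but by 0.62 without High3, where it was no longer called. Without High3 or without High4, 2 of the 29 were called.

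Enzymes that clear drugs and steroids were called higher in 14 of 49 (28.6%) and lower in 3 (6.12%), with a median of 0.57. In the most abundant bin, which holds the list's median level of 128 CPM, 20.1% were called higher and 6.18% lower. Over all IDs the shares were 9.98% and 9.42%. CYP1A1, an inducible enzyme of aromatic compounds, stood at 49.0, 22.3, 6.70, 24.7 and 15.1 CPM against 12.2, 4.33, 1.27, 5.32 and 3.42 CPM. High2 lay within the range of the lower-share livers (log2 fold change 2.12, SE 0.51, adjusted p = 0.011). CYP2C33 and CYP2C42, of a family that handles drugs and steroids, and CYP4F2, a fatty acid hydroxylase, rose by between 1.20 and 1.55. HSD17B8, a steroid and fatty acid dehydrogenase, fell by 0.84. Without High3, 8 were called higher and 2 lower, and without High4 6 and 2. The median was 0.18 within the low and 1.04 within the high androstenone livers, a difference that was not tested.

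HSD17B2, which oxidises testosterone and estradiol, shows how 2 livers can carry a call. It was at 5.48, 8.21, 5.79, 5.50 and 8.76 CPM in the higher-share livers. In the lower-share livers it was at 105 CPM in Low1 and 139.8 CPM in Low2, and at 3.10, 10.6 and 11.3 CPM in High5, High1 and High4. The groups overlapped, and the log2 fold change of -3.01 (SE 0.75, adjusted p = 0.013) was -4.02 within the low and -0.56 within the high androstenone livers.

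Bile acid genes were called higher in 4 of 11 (36.4%) and lower in 1. The median levels of the bile acid, cholesterol and antioxidant lists lay in the most abundant bin, where 20.1% were called higher and 6.18% lower. Over all IDs the shares were 9.98% and 9.42%. NR1H4, the bile acid receptor, its target NR0B2, and the synthesis enzymes HSD3B7 and ACOX2 rose by between 0.80 and 1.12, whereas ABCB11, the pump that exports bile acids, fell by 1.19. Without High3, 0 of the 11 passed in edgeR, with 5 at an unadjusted p under 0.05, and the same counts were found without High4. In cholesterol synthesis 2 of 13 were called higher, MSMO1 and PMVK, with a median of 0.40. This count was 1 without High3 and 5 without Low4. In edgeR it was 0 without High4 and 0 without Low5, each time with 4 at an unadjusted p under 0.05. Antioxidant genes were called higher in 4 of 15 (26.7%), namely the peroxiredoxins PRDX4 and PRDX6, the quinone reductase NQO1 and the plasma selenium carrier SELENOP, which rose by between 1.08 and 1.46, and in 1 of 15 without High3, High4 or Low1.

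Secreted plasma proteins were called in both directions. Of 24, 4 were called higher (16.7%) and 2 lower (8.33%), with a median of 0.56. These shares were near the 20.1% and 6.18% of the most abundant bin, against 9.98% and 9.42% of all IDs. Without High3 or High4, 2 were called higher. SERPINC1, antithrombin, and HPX, the heme carrier hemopexin, rose by 1.41 and 1.14, while APOE and A1BG fell by 2.22 and 1.25. ALB, albumin, the most abundant ID, had a log2 fold change of 0.61 (SE 0.36, adjusted p = 0.24), and its groups overlapped. In the acute phase list 2 of 12 were called higher (16.7%), HPX and the protease inhibitor SERPINA3-2, with a median of 0.56, and 1 without High3 or High4. In complement and coagulation 2 of 32 were called higher (6.25%) and 1 lower. There MASP1 and SERPING1, an activator and the inhibitor of complement, rose by 1.58 and 0.95, and coagulation factor F10 fell by 1.40. Without High3 or High4, 1 of the 32 was called higher, and without Low4 4 were.

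Immediate early genes respond within minutes to handling and stress, and their calls depended on single livers. Of 21 immediate early genes, 2 were called higher (9.52%) and 4 lower (19.0%), with a median of -0.04. Without High3, 0 were called higher in edgeR, with 2 of them at an unadjusted p under 0.05, 3 were called lower and the median was -0.45. JUN, a subunit of AP-1, gave 26.1, 23.4, 17.1, 15.6 and 19.7 CPM in the higher-share livers. In the lower-share livers it gave 104 CPM in Low1, 26.5 in Low2, 84.1 in High5, 64.2 in High1 and 153 in High4, so that Low2 lay only just above the higher-share livers (log2 fold change -2.08, SE 0.36, adjusted p = 0.0031). FOS, the partner of JUN, had the opposite sign, at 1.98, with overlapping groups and an adjusted p of 0.0615 in edgeR without High3. CYR61 and NR4A3 fell, with log2 fold changes of -1.698 and -1.13. KLF2 was the fourth lower call, but its values in High2, Low3 and Low4 lay under the floor of 3 counts, and it stayed called in 1 of 10 omissions of a liver. CDKN1A, the cell cycle inhibitor p21, rose by 2.31, and by 1.09 without High3, where it was no longer called.

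Heat shock proteins were called higher in 3 of 18 (16.7%), with a median of 0.30. This was near the 18.6% called higher in the bin between 23.6 and 57.3 CPM, which holds the list's median level of 52.1 CPM. The members called were the chaperonin subunits CCT7 and CCT2 and the small heat shock protein HSPB8. CCT7 alone stayed called without High3, High4 or Low1, and without Low4 5 of the 18 were called. Endoplasmic reticulum genes were called higher in 4 of 23 (17.4%, against 20.1% in the most abundant bin and 9.98% over all IDs), with a median of 0.06. Without High3, 2 were called and the median was -0.15, and without High4 2 were called. The members were the chaperones HSPA5 and PDIA6 and the translocon subunits SSR1 and SSR2, which rose by between 0.91 and 1.46. High3 was far above the remaining higher-share livers for HSPA5, at 999.7 CPM against at most 394, and the log2 fold change was 0.89 without it.

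The median of ribosomal protein transcripts lay below the -0.04 of all IDs, and that of nuclear transcripts lay near it. Of 44 ribosomal protein IDs, 2 were called higher (4.55%) and 4 lower (9.09%), with a median of -0.23 and 15 of the 44 above 0. Without High3 the counts were 1 higher and 2 lower, and without Low4 7 higher and 2 lower. The ribosomal protein median was -0.47 within the low and 0.05 within the high androstenone livers, a difference that was not tested. RPLP0 and RPL7L1 rose by 1.15 and 1.08, and RPS19, RPS18 and RPS28 fell by between 0.92 and 1.17. Of 35 splicing and nuclear RNA-binding IDs, 7 were called higher (20%) and 5 lower (14.3%), with a median of -0.09. The shares were 18.6% and 10.6% in the bin between 23.6 and 57.3 CPM, which holds the list's median level of 26.2 CPM. Without High3 or High4, 3 of the 35 were called higher and 3 lower, and without Low1 3 and 4. SRSF4 fell by 1.39 and HNRNPA0 by 0.85, while SF3B4, SF3A3, HNRNPA1 and HNRNPF rose by between 0.98 and 1.40. Of 3 histone IDs, H2AFZ rose by 1.16 and HIST1H4K fell by 3.17, the latter at 6.23 CPM in Low2 and at most 0.423 CPM in the remaining livers. Cell cycle genes were called higher in 1 of 17, CDK4, and lower in 3, the mitotic genes TOP2A, KIF11 and CENPF, and none of these 3 was called without Low2, where each had stood highest.

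In the growth hormone and IGF list 0 of 17 were called higher and 3 lower, with a median of -0.22. Besides CEBPA, these were IGFBP4 and IGFALS, binding partners of the IGFs, which fell by 1.27 and 1.13.

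Genes often used as references were higher in the higher-share livers. Of 11 housekeeping genes, 6 were called higher (54.5%) and 0 lower, all 11 had a log2 fold change above 0 and the median was 1.00. In the most abundant bin 20.1% were called higher and 6.18% lower, against 9.98% and 9.42% of all IDs. ACTB, beta actin, stood at 3677, 1387, 1968, 1501 and 1431 CPM in the higher-share livers and at 969.9, 823, 888, 1024 and 560.4 CPM in the lower-share livers. Each higher-share liver lay above each lower-share liver (log2 fold change 1.22, SE 0.32, adjusted p = 0.016), and without High3 the value was 0.88. EEF1A1, TUBA1B and UBB rose by between 1.00 and 1.28, and PGK1, given above, was also among those called. PPIA, cyclophilin A, had a log2 fold change of 0.33 (SE 0.27, adjusted p = 0.41), with values from 129 to 338 CPM in the higher-share and from 155 to 256 CPM in the lower-share livers.

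**Figure D4:**
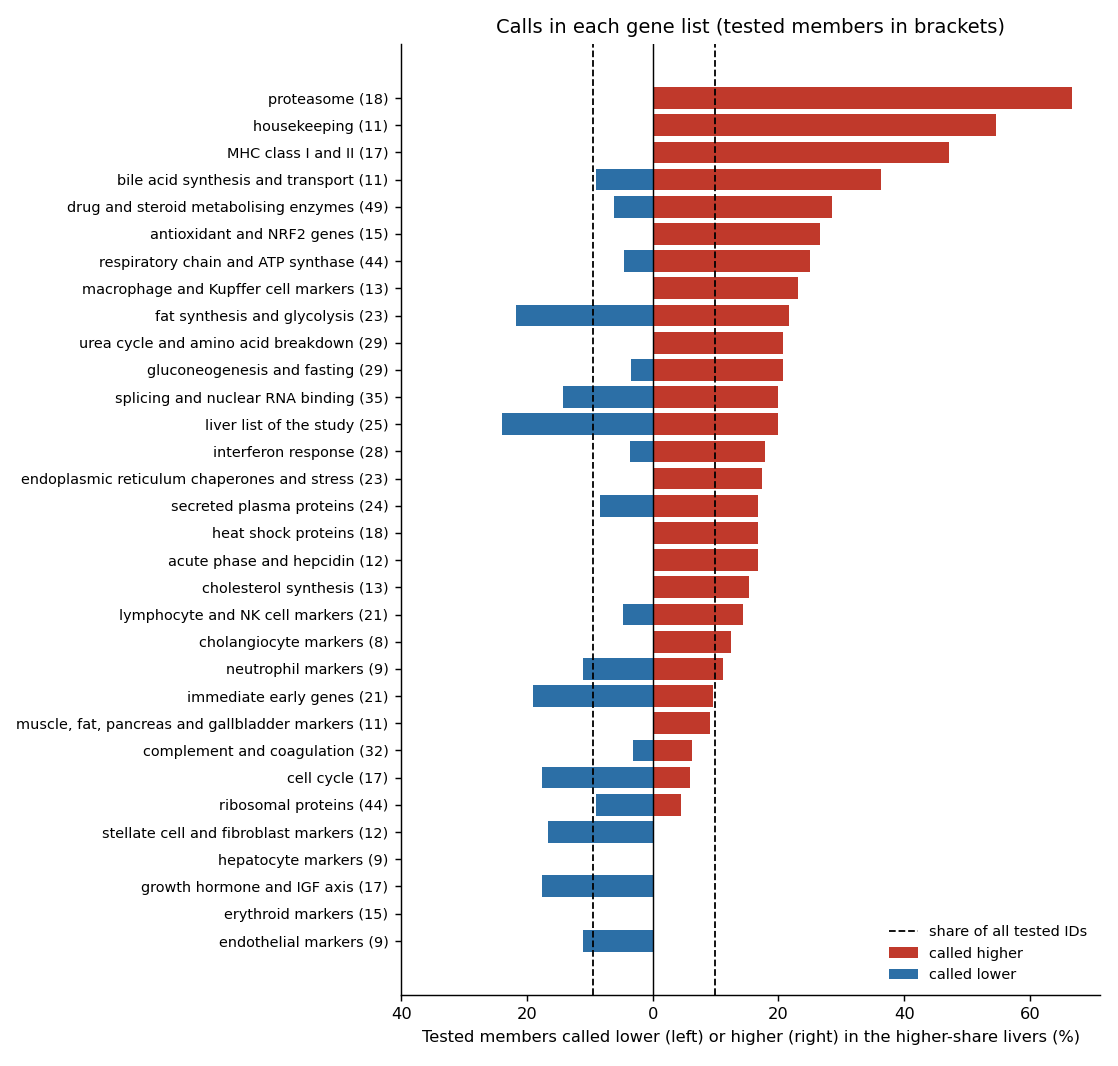
For each gene list with at least 8 tested members, bars give the percent of members called higher (right) or lower (left) in the higher-share livers. The 5 lists put together after the values were seen are not drawn. Dashed lines mark 9.98% and 9.42%, the shares over all tested IDs. Among the lists drawn, the proteasome, housekeeping and MHC lists reach the most to the right, at 66.7%, 54.5% and 47.1%, with no bar to the left.

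Hepatocyte markers did not pass in either direction. Of 9, 0 were called in edgeR, with 1 at an unadjusted p under 0.05 and 1 called by DESeq2, and the median was 0.52. Their summed level lay between 76070 and 189700 CPM in the higher-share and between 72369 and 123294 CPM in the lower-share livers. None of the 9 was at 0 in any group.

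Markers of other cells were checked in the same way. Summed Kupffer cell and macrophage markers lay between 487 and 709 CPM in the higher-share and between 539 and 692 CPM in the lower-share livers, and 3 of 13 were called higher. Among these were NCF1 and GP91-PHOX, subunits of the oxidase of phagocytes, while the median of the list was -0.11. Summed endothelial markers lay between 192 and 353 CPM against 192 and 233 CPM, and 1 of 9, ENG, was called, lower. Summed stellate cell and fibroblast markers lay between 919 and 1510 CPM against 1037 and 1498 CPM, and 2 of 12, BGN and COL5A1, were called lower, but neither without High3, High4 or any of several other livers. Bile duct markers had 1 of 8 called higher, CLDN4, which rose by 1.66 and stood at 319 CPM in High3, and their sums lay between 86.8 and 352 CPM against 36.9 and 98.6 CPM. CLDN4 was not called without High3 or without High4.

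Lymphocyte markers were called higher in 3 of 21, IL2RG, CD3E and NCR1, and lower in 1, with 1 called higher without Low2. The falling one was LTB, a lymphotoxin subunit, which lay between 0 and 0.274 CPM in the higher-share and between 0.845 and 1.44 CPM in the lower-share livers. Of 9 neutrophil markers, whose sums were at most 45.2 CPM, ALOX5AP was called higher and S100A9 lower. S100A9 was at most 0.564 CPM in the lower-share livers, near the floor of 3 counts. Neither was called without High2, High3, High4, Low1 or Low5. Of 15 erythroid IDs, 0 were called in edgeR and in DESeq2, with 2 at an unadjusted p under 0.05. HBB, a globin chain, was at 0.66 (SE 0.53, adjusted p = 0.39), and the erythroid sums lay between 3619.6 and 10148 CPM against 955 and 7682 CPM. KLF1, an erythroid factor, was at 0. Of 11 markers of muscle, fat, pancreas and gallbladder, 1 was called higher, ACTA1 of skeletal muscle, and their sums were at most 12.3 CPM, with MYH7 and CELA1 at 0. The part of other cells in the differences above was not tested.

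The liver IDs that the study listed for androstenone were called more often between the mapped share groups than IDs in general. That list was chosen on these samples, and it is not independent of them. Of its 25 IDs, 5 were called higher (20%) and 6 lower (24.0%) in the higher-share livers, against 9.98% and 9.42% of all IDs. Without High3, 24 could be tested, 1 was called higher and 5 lower, and the median log2 fold change of the list went from 0.79 to -0.89. Without Low4, 9 were called higher. KRT78, an epithelial keratin, gave 13.4, 2.07, 1.83, 0.862 and 0.411 CPM in the higher-share livers and at most 0.209 CPM in the lower-share livers, which is within the counting floor. TSKU, a secreted proteoglycan with 3 near-identical IDs, was high only in Low1 and Low2, at between 17.6 and 20.4 CPM, and at most 5.82 CPM elsewhere. KRT8, the hepatocyte keratin, stood at 5996 CPM in High3 and at most 748 CPM in the other higher-share livers, and its log2 fold change of 1.76 (adjusted p = 0.12) was 0.15 without High3.

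The mapped share difference was present in each androstenone group taken alone. Among the 5 high androstenone livers, 576 IDs were called higher and 457 lower, and among the 5 low androstenone livers 134 and 124. These fits share no liver. Of 1031 IDs called in the high androstenone livers and tested in both, 991 (96.1%) had the same sign in the low androstenone livers. Of 258 called in the low androstenone livers, 248 (96.1%) had the same sign in the high androstenone livers. Over all 14409 IDs tested in both, 74.7% had the same sign. A test of the difference between the fits, the interaction of mapped share group and androstenone group, called 0 IDs in edgeR (821 at an unadjusted p under 0.05, smallest adjusted p = 0.60). With the androstenone group as a covariate, 1860 IDs were called higher and 1720 lower.

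**Figure D5:**
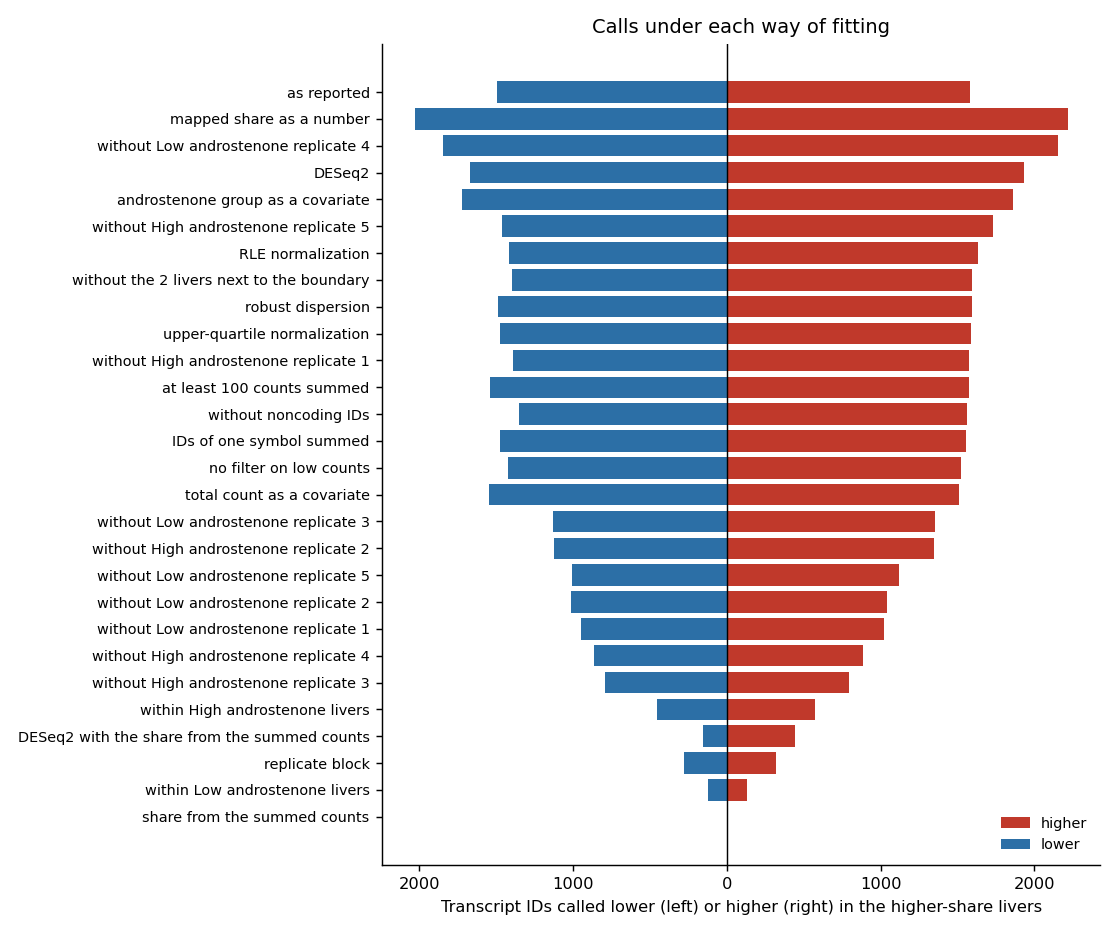
Number of IDs called higher (right) or lower (left) in the higher-share livers as reported and under each alternative, with replicate numbers naming the liver left out. Most bars lie nearer the reported 1582 and 1493. Among the shorter ones are those without High3, High4, Low1 or Low2, for 1 androstenone group alone and for the replicate block. With the share from the summed counts, in which Low4 and Low1 change places, the bar is shorter in DESeq2 and at 0 in edgeR.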

How the data were processed

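Total RNA of 10 boar livers was made into mRNA-Seq libraries and sequenced by the authors. Base calling was done in CASAVA 1.7. Alignment was done with BWA to pig RefSeq mRNA and UniGene sequences of the Sscrofa 9.2 build, and SAMtools was used. The deposited files hold raw counts of reads per reference ID, not normalized. How reads that fitted several IDs were counted is not given in the sources used here. Each file had 21785 lines for 21755 IDs. Repeated lines (10 IDs, 4 lines each, no difference in count) were collapsed. Symbols were available for 6692 IDs, 6654 of them from a RefSeq table of Sscrofa11.1.

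Mapped shares were computed from the numbers of mapped and of all reads that the study lists per library. IDs with at least 10 counts over the 10 livers were tested with edgeR 4.0.16 (R 4.3.3), by TMM normalization and glmQLFit, with the share group as the only term. Calls required a Benjamini-Hochberg adjusted p below 0.05 together with a 1.5-fold difference or more. CPM values are TMM-scaled, and each SE was derived from the log2 fold change and its F statistic, as their ratio after taking the root of F. Measures of library makeup were compared by exact two-sided permutation tests (scipy 1.17.1, Python 3.11.15). DESeq2 1.42.0, other normalizations, filters and covariates, and the omission of single livers were the alternatives.

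Named genes were the 12 IDs with a symbol, a mean of at least 1 CPM and the smallest p in each direction, up to 6 called members of each list (where none was called, the most abundant and the one with the smallest p), PPIA and ACTB, the study's 25 liver IDs and the 3 most abundant IDs. The members and the 33 lists were chosen with earlier results of these data known, and a further 5 lists after the values were seen. The 10 testis samples were not used here. Some called members of the lists are counted but not reported here by name.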

Additional observations from a re-analysis of the deposited data

Results flagged for a closer look

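In 310 groups of 5 livers (the named IDs and the library measures in each mapped share group), 37 had 1 liver that stood apart by Dixon's test, in which the gap to the nearest liver exceeds 0.71 of the range of the group. The cutoff flags about 1 in 20 groups of independent, normally distributed values. The named IDs were picked by p or by list and share the same livers, so the number expected by chance is not known here. Of the 37, 18 concerned High3, each time as the highest of the higher-share livers.

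High3 stood highest for the structural genes KRT8 (5996 CPM against at most 748 CPM in the remaining higher-share livers), KRT78 (13.4 CPM), ACTB (3677 CPM), TUBA1B (144 CPM) and ACTA1 (9.05 CPM). It also stood highest for the energy genes ATP5A1 (1135 CPM), ATP5D (539 CPM), NDUFA9 (335 CPM) and TPI1 (404 CPM). For the chaperones and the proteasome it did so with HSPA5 (999.7 CPM), PDIA6 (558 CPM), CCT7 (222 CPM) and PSMD13 (232 CPM). The remaining ones were CDKN1A (188 CPM against at most 38.1 CPM), HAL (195 CPM against at most 37.6 CPM), PISD (17.0 CPM), NKIRAS2 (4.32 CPM) and TOP2A (10.1 CPM).

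Among the other higher-share livers, Low4 was highest for MEN1 (2.05 CPM) and F10 (82.3 CPM) and lowest for CYP2C42 (9.17 CPM against at least 40.2 CPM), and Low3 was highest for SLA-3 (69.5 CPM). Among the lower-share livers, Low2 was highest for CXCL9 (81.5 CPM), TOP2A (42.4 CPM), HIST1H4K (6.23 CPM) and ALB (97840.5 CPM). Low1 was highest for MBL2 (176 CPM against at most 24.1 CPM), BCAM (4.66 CPM) and F11R (5.49 CPM). High1 was highest for PRKAG1 (5.25 CPM), TAP1 (2.76 CPM) and CDK4 (41.9 CPM) and lowest for CEBPA (6.93 CPM). High4 was highest for BCL7C (12.2 CPM) and lowest for SERPINC1 (1087 CPM) and PGK1 (32.7 CPM), and High5 was highest for S100A9 (0.564 CPM).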

How the results depend on the processing

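The counts of called IDs stayed within 1.5 times the reported 1582 and 1493 under RLE and upper-quartile normalization, DESeq2, stricter and no filtering, summed symbols, robust dispersion, the androstenone group or the total count as a covariate, the mapped share as a number, and the omission of noncoding IDs or of both boundary livers. Leaving out 1 liver at a time gave 792 to 2151 higher and 795 to 1847 lower, with the lowest without High3 and the highest without Low4. With the share from the summed counts 0 and 0 were called in edgeR, and 441 and 154 in DESeq2. Within the high androstenone livers 576 and 457 were called, and within the low androstenone livers 134 and 124, with fewer samples in each. FADS2 (log2 fold change 0.14) and BCAM (2.01) turned with the share from the summed counts, and MBL2 (2.39) within the high androstenone livers, and the cause was not tested.

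The difference for the 10 most abundant IDs ran from -7.94 to -4.67 percentage points with 1 liver left out. With the noncoding IDs taken out it became 3.82, that for the 100 most abundant IDs became 5.31, that for ribosomal protein IDs -1.10 (exact permutation p = 0.0317) and that for secreted plasma protein IDs 1.76 (exact permutation p = 0.238), since those IDs left the total.

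With the replicate number as a block, 321 IDs were called higher and 279 lower. The deviations of livers of the same number had correlations of -0.20, 0.12, -0.25, 0.30 and -0.17. The labels do not say what the numbers stand for. So few values cannot show whether livers of the same number shared a preparation, and this was not tested. Of 152 named IDs called, 102 stayed called without High3, 105 without High4 and 0 with the share from the summed counts. Depth limited IDs under 3 counts.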

Other observations

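A further 5 lists were put together after the values were seen, so their counts are descriptions only. Over all IDs, 9.98% were called higher and 9.42% lower. Liver transcription factors were called lower in 13 of 36 IDs (36.1%) and higher in 4, with a median log2 fold change of -0.28. The 36 IDs had 31 symbols, and USF2, TBX3 and NR2F2 each made up 2 of the 13 lower calls. In the bin between 12.4 and 23.6 CPM, which holds the list's median level of 17.6 CPM, 13.4% were called lower and 14.6% higher. Besides USF2, FOXA2 and CEBPA, the pioneer factors FOXA3 and FOXA1 fell by 1.51 and 0.87, TBX3 by 1.36 and 1.47 for its 2 IDs, ONECUT1 by 1.16 and GATA6 by 1.06. Nuclear receptors stood on both sides. THRB, NR1H3, NR1H4 and NR0B2 were the 4 called higher, and none of them stayed called without High4 or without Low5. THRB and NR1H3 rose by 0.96 and 0.70, while NR2F2 fell by 0.79 and 0.81 for its 2 IDs and 1 of the PPARD IDs fell by 1.87, at a mean of 0.864 CPM. Chromatin regulators were called lower in 13 of 39 IDs (33.3%) and higher in 4, with a median of -0.64. In the bin between 4.05 and 7.22 CPM, which holds their median level of 6.21 CPM, 14.4% were called lower and 12.1% higher. SMARCC2, a SWI/SNF subunit, fell by 2.25, HMGA1, an architectural protein, by 2.06 and 1.48 for its 2 IDs, and INO80, a remodeller, by 1.51, while SMARCB1, of the same complex as SMARCC2, rose by 1.05 and 0.96 for its 2 IDs.

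Vesicle coat and transport genes were called higher in 15 of 72 (20.8%) and lower in 2, with a median of 0.38. Their median level of 9.92 CPM lay in the bin between 7.22 and 12.4 CPM, where 11.8% were called higher and 13.1% lower. COPZ1 and COPE of the COPI coat rose by 1.51 and 0.99, and RAB11A, of recycling endosomes, by 1.53. Vacuolar ATPase genes were called higher in 6 of 12 (50%, against 18.6% in the bin between 23.6 and 57.3 CPM). Their median was 0.83, and ATP6V0D1 rose by 1.60. GPI anchor genes were called higher in 5 of 8 (62.5%, against 14.6% in the bin between 12.4 and 23.6 CPM), with a median of 1.01. PIGF and PIGC rose by 1.29 and 1.23, and DPM1, which supplies mannose for the anchor, by 0.78. Without High3 the counts were 1 higher and 8 lower for transcription factors, 2 and 11 for chromatin regulators, 10 and 2 for vesicle genes, 2 higher for the vacuolar ATPase and 4 higher for GPI anchors.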
